A study of Arabidopsis thaliana with 21 samples.

Results

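The transcripts described here are 70 genes of Arabidopsis thaliana roots whose signal stood higher step by step from the end of the first to the end of the tenth parabola of an aircraft flight. They were chosen from 16722 probe sets (groups of array probes for a transcript) that name a single gene. To be chosen, a probe set needed a mean log2 signal of at least 4 over the 21 arrays, a group mean at least 0.8 higher at parabola 10 end than at parabola 1 end, and a parabola 3 end mean at least 0.2 above the former and 0.2 below the latter. Of the 16722, 6203 had a mean of at least 4, and these form the background below. Because the members were chosen on the arrays of those 3 groups, differences among them, and of each of them from level flight, are given as descriptions. Where calls of the fit among those 3 groups are given, they are no test of the members. The reverse pattern, with the same limits and signs turned, was met by 34 probe sets.

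All seedlings were wild type of the Wassilewskija (WS) cultivar, 12 days old and grown at 19 °C in 24 h light, and whole roots dissected from shoots after fixation were measured. They flew on a C-9 aircraft, which alternates climbs at increased gravity with arcs of near weightlessness, inside Kennedy Space Center Fixation Tubes (KFTs), which flood plants with the preservative RNAlater when actuated. The 21 arrays form 7 groups of 3: level flight, 1 min before parabola 1, parabola 1 start, at the pitch up into the climb, parabola 1 midpoint in KFT A and in KFT B, actuated by different crew members at the change from high to low gravity, and the ends of parabolas 1, 3 and 10. No treatment other than flight stage and the fixative, which all groups share, is given in the labels. The labels state that each condition's replicates came from roots of a single tube. Except at the midpoint, stage and tube therefore cannot be told apart, and a p-value here reflects how root pools within 1 tube vary; variation among tubes or flights does not enter it. Higher and lower below compare different plants in different tubes, not the same roots followed over time.

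Plant cells that run short of sugar switch from making to breaking down reserves. The kinase SnRK1 and its target bZIP transcription factors raise transcripts for the mitochondrial breakdown of branched-chain amino acids, which passes electrons to the respiratory chain through the electron-transfer flavoprotein and its ubiquinone oxidoreductase, and for enzymes that release nitrogen from asparagine and carbon from proline, lysine and methionine. Roots import sugar from the shoot, and transporters of the vacuole membrane buffer that supply. The results below begin with these genes.

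Whole-series values that touch these genes are few. On the linear scale the 3 measured endodermis markers summed to between 409.7 and 683.6 in any array. The 3 root cap and root tip markers summed to between 104.7 and 240.9, most of it from AT5G54370, since BBM and AT1G26680 had log2 means of 3.98 and 1.89 in level flight. The 2 root hair markers were dim at 17.4 to 32.6, as were the 5 shoot markers at 44.5 to 77.7, and no marker of the stele was analysed here. Column medians lay between 2.92 and 3.04. The column means moved with the group comparison, at 3.781 to 3.828 at parabola 1 end and 3.766 to 3.776 at parabola 10 end, and their part in the results was not tested.

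Across the 70 members, the difference between parabola 10 end and parabola 1 end had a median of 1.05 on the log2 scale, from 0.80 to 2.65. The median over the 6203 background probe sets was 0.02. All 3 arrays of parabola 10 end lay above all 3 of parabola 1 end for each of the 70, as for 15.5% of the background, a separation that the rule largely fixes. The single steps overlapped more often: the 3 arrays of parabola 3 end lay above those of parabola 1 end for 36 members (7.09% of the background), and those of parabola 10 end above those of parabola 3 end for 51 (11.8%). The fit across all 17481 named probe sets (limma, Benjamini-Hochberg adjusted p under 0.05) called 67 members higher at parabola 10 end than at parabola 1 end, with 1.31% of all probe sets called, and this count follows from the choice. Between parabola 1 end and parabola 3 end the same fit called 0 of 17481 probe sets, members included, with 1202 under an unadjusted p of 0.05.

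The limits fell within a continuum. Just inside the limit on the whole difference were AT4G36050 at 0.802, AT1G10585 at 0.803, AT5G06220 at 0.807 and SDP1 at 0.811, and just outside AT4G33700 at 0.7996, the plastid gene ndhH at 0.797, AT3G15450 at 0.793 and AT5G39240 at 0.789. The whole difference alone kept out 99 probe sets, the level 12, the step to parabola 3 end 9 and the last step 1. At the level limit, PDF1.4 (4.17), AT5G02580 (4.19), AT5G03180 (4.48) and AT1G15330 (4.49) were inside, and AT4G33666 (3.95), AT2G41730 (3.93), AT5G05530 (3.93) and AER (3.69) outside. At the limit on the step to parabola 3 end, AT3G46280 (0.21), AT1G10585 (0.22), AT3G20340 (0.23) and AT2G47560 (0.25) were inside, and AT1G18460 and AT2G15695 (0.19 each), AT5G14120 (0.16) and the glyoxylate cycle gene ICL (0.15) outside. On the step to parabola 10 end, TRM24 and MGL (0.21 each), AT4G27450 (0.23) and BGLU45 (0.24) were just inside, and AT1G21680 at 0.17 was the single probe set just outside.

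Averaged over the 70 members, the deviation of an array from each gene's 21-array mean was -0.59 at parabola 1 end (-0.70 to -0.53), -0.09 at parabola 3 end (-0.33 to 0.11) and 0.55 at parabola 10 end (0.39 to 0.81). Level flight averaged 0.18 (0.01 to 0.35), parabola 1 start -0.13 (-0.14 to -0.10), KFT A 0.01 (-0.02 to 0.03) and KFT B 0.06. Thus the arrays of parabola 1 end were the lowest of the flight and those of parabola 10 end stood above level flight by less than parabola 1 end stood below it. KFT B was uneven, with replicate 2 at -0.26, replicate 1 at 0.04 and replicate 3 at 0.41, a spread wider than in any other group. The background deviated by -0.036 to 0.03 in any array.

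**Figure D1:**
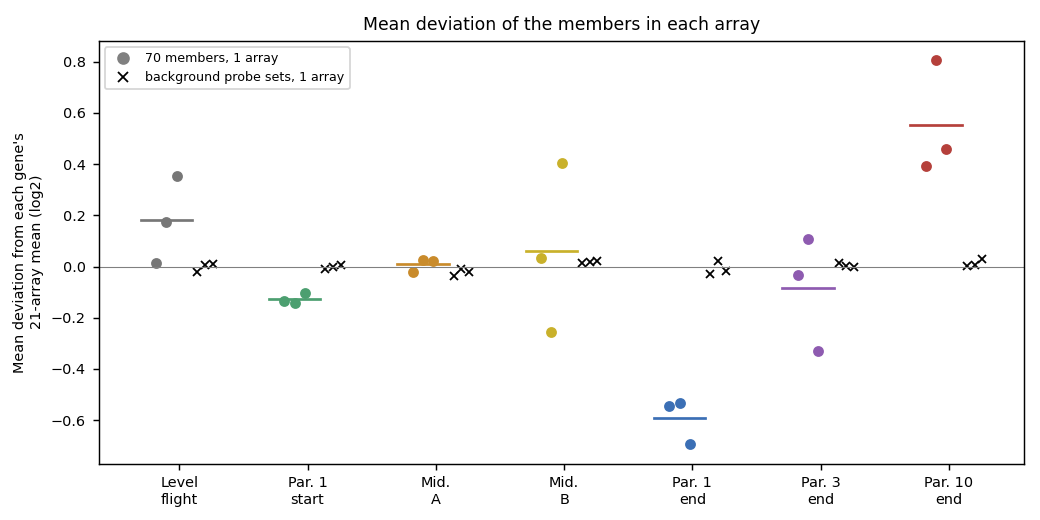
Mean deviation of the 70 members from each gene's mean over 21 arrays (log2 scale, 1 coloured point an array, bars are group means), with the means over the 6203 background probe sets as crosses, by group on the horizontal axis. Parabola 1 end lies between -0.70 and -0.53, parabola 10 end between 0.39 and 0.81, and the 3 arrays of KFT B run from -0.26 to 0.41.

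The order among the 3 parabola ends is set by the rule. The mean of parabola 1 end was the lowest of the 7 groups for 64 members and that of parabola 10 end the highest for 56, with level flight the highest for 11. Background shares for these lowest and highest means are not given. Relative to level flight, members stood at a median of -0.72 at parabola 1 end (68 of 70 below), -0.25 at parabola 3 end (50 below) and 0.40 at parabola 10 end (58 above). In the background, 52.7%, 54.7% and 57.3% of probe sets lay above level flight at these ends. Level flight lay between both ends and nearer parabola 10 end for 38 members, nearer parabola 1 end for 18, above parabola 10 end for 12 and below parabola 1 end for 2, AT5G06220 and AT1G10585. In 21 members the 3 lowest of all 21 arrays were those of parabola 1 end (0.69% of the background), and in 15 the 3 highest were those of parabola 10 end (1.39%). Both held for AT1G21400, AT1G18270, ALDH6B2, AT3G20340, MCCB and AT5G57655 (0.11% of the background). These counts use the selected arrays, so nothing is read from them beyond where each group lay.

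**Figure D2:**
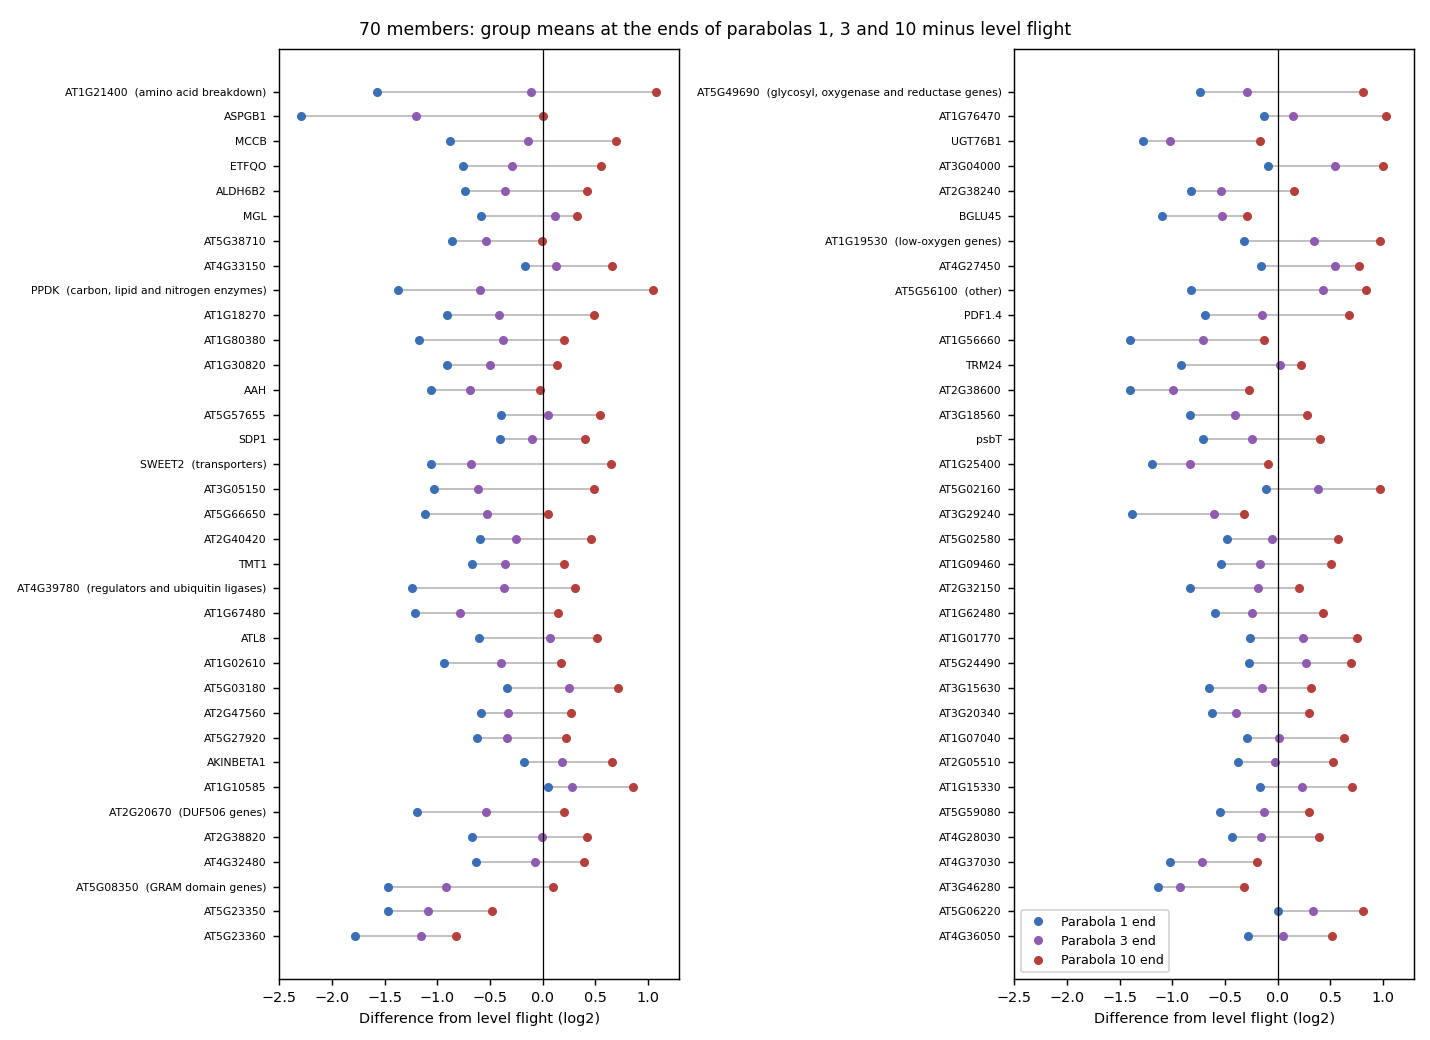
Group means of all 70 members at the ends of parabolas 1 (blue), 3 (purple) and 10 (red) minus level flight, on the log2 scale, 1 line a gene grouped by role (the role is written beside its first gene). Most lines cross 0, and 12 lie wholly below it, among them those of AT5G23350, AT5G23360 and BGLU45.

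Amino acid breakdown gave 8 members whose difference between parabola 10 end and parabola 1 end had a median of 1.24. AT1G21400, an E1 alpha subunit of the mitochondrial dehydrogenase complex that commits branched-chain amino acids to oxidation, had the largest difference of all members at 2.65 (SE 0.37), or 6.27-fold. It read 5.06, 4.61 and 4.15 at parabola 1 end, 6.13, 6.54 and 5.53 at parabola 3 end and 6.99, 7.77 and 7.01 at parabola 10 end. Its other arrays read 6.01, 6.07 and 6.46 in level flight, 5.81, 5.55 and 5.66 at parabola 1 start, 5.87, 6.09 and 6.00 in KFT A and 5.91, 5.27 and 6.58 in KFT B. The 3 arrays of parabola 1 end were the lowest and the 3 of parabola 10 end the highest of all 21, while parabola 3 end overlapped level flight.

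MCCB, the beta subunit of methylcrotonyl-CoA carboxylase in leucine breakdown, read 7.87, 8.06 and 7.72 at parabola 1 end, 8.70, 8.88 and 8.31 at parabola 3 end and 9.36, 9.71 and 9.31 at parabola 10 end, a difference of 1.57 (SE 0.16). Its other arrays read 8.60, 8.78 and 8.92 in level flight, 8.64, 8.57 and 8.56 at parabola 1 start, 8.77, 8.82 and 8.60 in KFT A and 8.63, 8.12 and 9.10 in KFT B. As for AT1G21400, both ends bounded all other arrays from below and above. ETFQO, which hands electrons from this pathway to ubiquinone, read 6.44, 6.41 and 6.20 at parabola 1 end, 7.04, 7.03 and 6.39 at parabola 3 end and 7.51, 7.96 and 7.50 at parabola 10 end, and 6.90, 7.10 and 7.32 in level flight. ALDH6B2, methylmalonate semialdehyde dehydrogenase of valine breakdown, read 5.58, 5.83 and 5.59 at parabola 1 end, 6.03, 6.17 and 5.92 at parabola 3 end and 6.70, 6.99 and 6.79 at parabola 10 end, and 6.33, 6.41 and 6.47 in level flight. Both genes thus stood below level flight at the first end and above it at the last, with no overlap between level flight and either end. AT4G33150, the bifunctional enzyme that opens lysine breakdown, read 6.57, 6.79 and 6.95 at parabola 1 end, 7.30, 7.04 and 6.86 at parabola 3 end and 7.51, 7.67 and 7.62 at parabola 10 end, and 6.89, 6.91 and 7.03 in level flight. Its parabola 1 end overlapped level flight and only parabola 10 end stood clear of it.

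ASPGB1, an asparaginase that frees ammonium from asparagine, differed by 2.30 (SE 0.16), or 4.92-fold. It read 5.63, 5.44 and 5.25 at parabola 1 end, 6.60, 6.87 and 6.13 at parabola 3 end and 7.83, 7.89 and 7.50 at parabola 10 end. In the other groups it read 7.54, 7.83 and 7.83 in level flight, 6.28, 6.39 and 6.41 at parabola 1 start, 6.56, 6.10 and 6.85 in KFT A and 6.57, 6.48 and 7.12 in KFT B. Its parabola 10 end arrays interleaved with level flight, and all arrays of the 5 groups between lay lower than both. AT5G38710, a proline dehydrogenase that feeds proline carbon to mitochondria, read 5.55, 5.33 and 5.91 at parabola 1 end, 5.87, 6.11 and 5.77 at parabola 3 end and 6.51, 6.70 and 6.15 at parabola 10 end, and 6.33, 6.24 and 6.80 in level flight, so that its last end also overlapped level flight. MGL, methionine gamma-lyase, which splits methionine, had a difference of 0.91 that was reached mostly by parabola 3 end (8.60, 8.34 and 8.46 at parabola 1 end against 9.14, 9.30 and 9.05 at parabola 3 end).

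**Figure D3:**
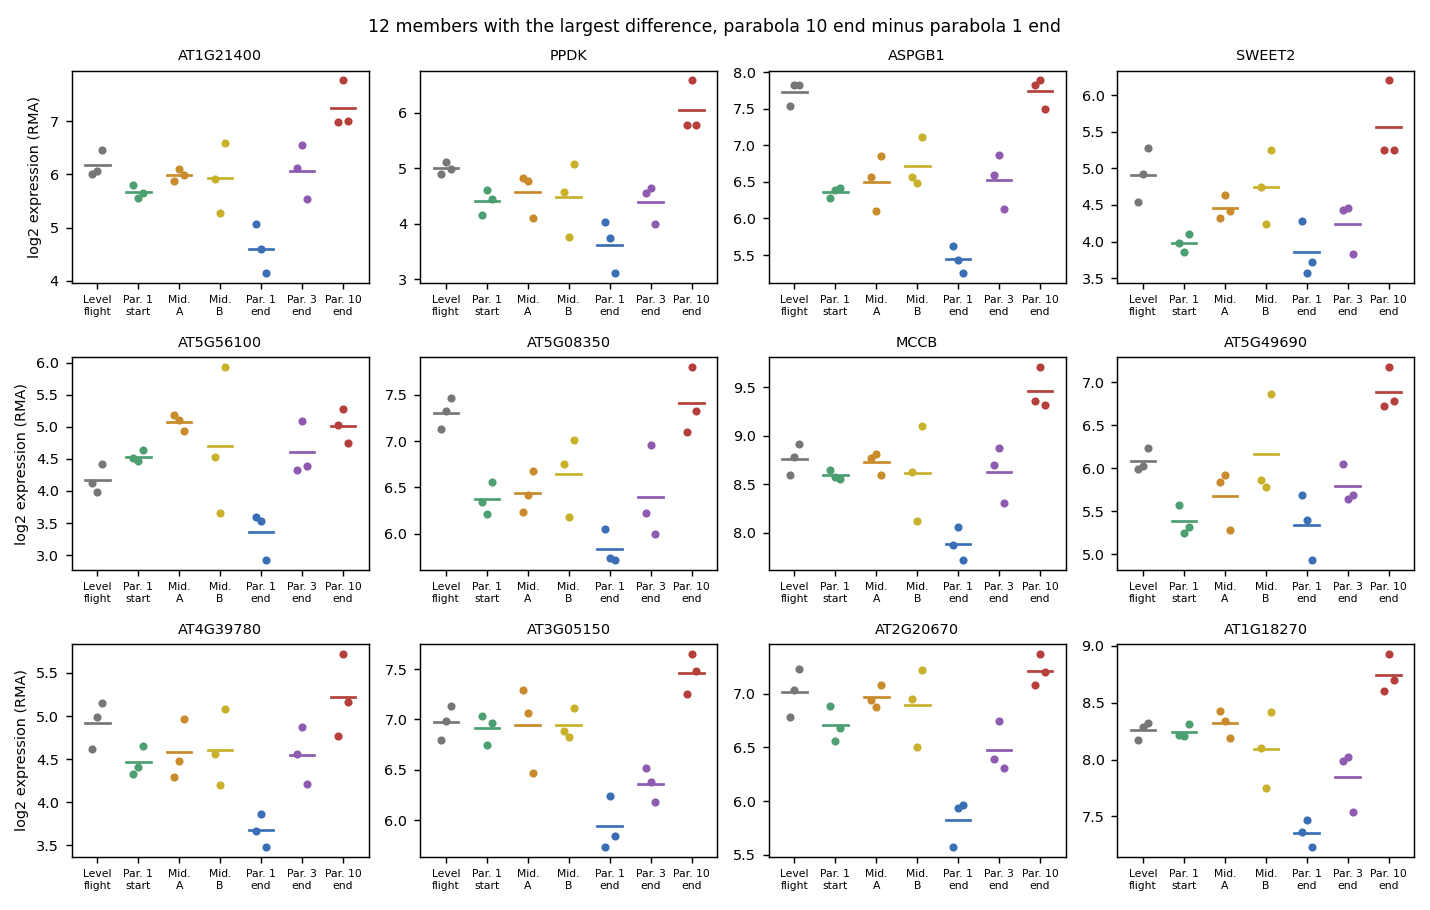
Log2 signal of the 12 members with the largest difference between parabola 10 end and parabola 1 end, 1 panel a gene, 1 point an array and bars at group means, with each vertical axis on its own scale. AT1G21400, at the top left, runs from a lowest array of 4.15 at parabola 1 end to a highest of 7.77 at parabola 10 end.

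Enzymes of carbon, lipid and nitrogen turnover gave 7 members with a median difference of 1.04. PPDK, pyruvate phosphate dikinase, which links pyruvate to phosphoenolpyruvate and to amino acid carbon, differed by 2.42 (SE 0.38). It read 4.03, 3.73 and 3.11 at parabola 1 end, 4.55, 4.65 and 3.99 at parabola 3 end and 5.78, 6.59 and 5.77 at parabola 10 end. Its remaining arrays were 4.89, 5.10 and 4.99 in level flight, 4.16, 4.60 and 4.45 at parabola 1 start, 4.83, 4.76 and 4.10 in KFT A and 4.57, 3.77 and 5.08 in KFT B. Parabola 10 end held the 3 highest of 21 arrays, whereas parabola 1 end overlapped single arrays of KFT B and parabola 3 end. AT1G18270, a gene of the class II aldolase family, read 7.36, 7.47 and 7.23 at parabola 1 end, 7.98, 8.02 and 7.54 at parabola 3 end and 8.60, 8.93 and 8.70 at parabola 10 end. It read 8.17, 8.28 and 8.32 in level flight, 8.22, 8.21 and 8.31 at parabola 1 start, 8.43, 8.34 and 8.19 in KFT A and 8.11, 7.75 and 8.42 in KFT B, so that here both ends stood clear of every other array.

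Of the remaining enzymes, AT1G80380, glycerate kinase, differed by 1.37, AT1G30820, a CTP synthase, by 1.04, AAH, which releases ammonium from the purine product allantoate, by 1.04, AT5G57655, a xylose isomerase, by 0.94 and SDP1, a lipase that opens stored triacylglycerol, by 0.81. All 7 genes were lower at parabola 1 end than in level flight by their group means, and all but AAH were higher than level flight at parabola 10 end. AAH read 6.44, 6.33 and 6.42 in level flight and 6.29, 6.64 and 6.19 at parabola 10 end, which overlap.

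Transporters gave 5 members with a median difference of 1.17. SWEET2, a sugar facilitator of the vacuole membrane in root cells, read 4.28, 3.57 and 3.72 at parabola 1 end, 4.43, 4.45 and 3.82 at parabola 3 end and 5.25, 6.20 and 5.25 at parabola 10 end, a difference of 1.71 (SE 0.39). Its other arrays read 4.54, 4.92 and 5.28 in level flight, 3.99, 3.85 and 4.10 at parabola 1 start, 4.32, 4.63 and 4.42 in KFT A and 4.74, 4.24 and 5.25 in KFT B. It was low at parabola 1 start as well as at parabola 1 end, and its parabola 10 end overlapped level flight and KFT B. AT3G05150, of the ERD6-like sugar transporter family, read 5.73, 6.24 and 5.84 at parabola 1 end, 6.52, 6.38 and 6.18 at parabola 3 end and 7.25, 7.65 and 7.49 at parabola 10 end. In its other groups it read 6.79, 6.99 and 7.14 in level flight, 7.03, 6.74 and 6.97 at parabola 1 start, 7.29, 7.06 and 6.47 in KFT A and 6.88, 6.83 and 7.12 in KFT B. The ends of parabolas 1 and 3 were low, and among the other arrays only KFT A replicate 3 reached down to them. TMT1, which loads monosaccharides into the vacuole, differed by 0.88, AT5G66650 of the calcium uniporter family by 1.17 and AT2G40420 of an amino acid transporter family by 1.06.

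Regulators and ubiquitin ligases gave 9 members with a median difference of 1.05 (0.80 to 1.55). AT4G39780, an AP2/ERF transcription factor, read 3.67, 3.87 and 3.48 at parabola 1 end, 4.56, 4.87 and 4.21 at parabola 3 end and 4.77, 5.72 and 5.17 at parabola 10 end, a difference of 1.55 (SE 0.30). Its other arrays read 4.62, 4.99 and 5.15 in level flight, 4.32, 4.41 and 4.66 at parabola 1 start, 4.29, 4.48 and 4.97 in KFT A and 4.56, 4.20 and 5.08 in KFT B. Parabola 1 end held its 3 lowest arrays, while parabola 10 end overlapped level flight. AKINBETA1, a beta subunit of SnRK1, read 7.49, 7.59 and 7.34 at parabola 1 end, 7.90, 8.03 and 7.61 at parabola 3 end and 8.13, 8.54 and 8.27 at parabola 10 end, and 7.56, 7.68 and 7.72 in level flight. ATL8, a RING-type ubiquitin ligase, read 5.00, 4.77 and 4.28 at parabola 1 end, 5.35, 5.51 and 5.22 at parabola 3 end and 5.67, 6.08 and 5.67 at parabola 10 end, and 4.98, 5.22 and 5.67 in level flight. For AKINBETA1 the parabola 10 end arrays were the 3 highest of 21, and for ATL8 they began at the highest array of level flight. The further RING genes AT1G02610, AT5G03180 and AT2G47560 differed by 1.11, 1.05 and 0.85, the F-box genes AT1G67480 and AT5G27920 by 1.36 and 0.84, and the bHLH gene AT1G10585 by 0.80.

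The members included sets of related genes. The 3 DUF506 genes (a plant domain of unknown function) AT2G20670, AT2G38820 and AT4G32480 differed by 1.39, 1.09 and 1.03. AT2G20670 read 5.57, 5.93 and 5.96 at parabola 1 end, 6.39, 6.74 and 6.30 at parabola 3 end and 7.08, 7.37 and 7.20 at parabola 10 end. In its other groups it read 6.78, 7.04 and 7.22 in level flight, 6.88, 6.56 and 6.67 at parabola 1 start, 6.94, 6.88 and 7.08 in KFT A and 6.95, 6.51 and 7.22 in KFT B. Parabola 1 end held its 3 lowest arrays, and level flight, KFT B and, barely, KFT A reached into the range of parabola 10 end. Parabola 1 start lay below that range. The 3 GRAM-domain genes AT5G08350, AT5G23350 and AT5G23360 differed by 1.57, 0.99 and 0.96. AT5G23350 and AT5G23360 lie side by side with no protein-coding gene between them in the RefSeq annotation (assembly TAIR10.1), are close paralogs, and could share probes, so they may not be independent readings. AT5G08350 read 6.05, 5.74 and 5.71 at parabola 1 end, 6.22, 6.96 and 6.00 at parabola 3 end and 7.10, 7.80 and 7.33 at parabola 10 end, and its other arrays were 7.13, 7.33 and 7.46 in level flight, 6.35, 6.22 and 6.56 at parabola 1 start, 6.23, 6.41 and 6.68 in KFT A and 6.75, 6.18 and 7.01 in KFT B. Its level flight and parabola 10 end overlapped and its parabola 1 end overlapped the lowest array of parabola 3 end.

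The 6 enzyme genes that follow code for glycosyl-transferring, oxygenase or reductase enzymes or a beta-glucosidase (median difference 1.10). AT5G49690, a UDP-glycosyltransferase, read 5.69, 5.40 and 4.93 at parabola 1 end, 6.05, 5.64 and 5.69 at parabola 3 end and 6.72, 7.17 and 6.78 at parabola 10 end, a difference of 1.55 (SE 0.26). Its other arrays read 5.99, 6.02 and 6.23 in level flight, 5.57, 5.25 and 5.32 at parabola 1 start, 5.84, 5.93 and 5.28 in KFT A and 5.86, 5.78 and 6.87 in KFT B. Parabola 10 end was matched there only by replicate 3 of KFT B. UGT76B1, which glucosylates isoleucic acid and salicylate, differed by 1.11, AT2G38240, a jasmonate-hydroxylating oxygenase, by 0.98, the beta-glucosidase BGLU45 by 0.81, and the reductase genes AT3G04000 and AT1G76470 by 1.08 and 1.15.

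The 2 members known to rise when oxygen is low, AT1G19530 and AT4G27450, differed by 1.28 and 0.93. AT1G19530 read 7.91, 8.12 and 7.76 at parabola 1 end, 8.73, 8.89 and 8.15 at parabola 3 end and 9.10, 9.54 and 9.01 at parabola 10 end, and 7.94, 8.22 and 8.58 in level flight. AT4G27450 read 7.69, 7.79 and 7.57 at parabola 1 end, 8.35, 8.56 and 8.25 at parabola 3 end and 8.45, 8.82 and 8.57 at parabola 10 end, and 7.46, 7.80 and 8.27 in level flight. Both had a level flight near parabola 1 end rather than near parabola 10 end, unlike ASPGB1 or the GRAM-domain genes. The plastid-encoded psbT, a small photosystem II subunit, read 4.94, 5.17 and 4.43 at parabola 1 end, 5.61, 5.68 and 4.66 at parabola 3 end and 5.44, 6.10 and 6.35 at parabola 10 end, and 5.00, 5.61 and 6.07 in level flight, so that level flight spanned most of its range.

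The other 27 members, which fall in none of these groups, had differences from 0.80 to 1.66 with a median of 1.03, and 26 of them were lower at parabola 1 end than in level flight. AT5G56100, taken from a list of sugar-starvation genes, had the largest, and read 3.60, 3.54 and 2.92 at parabola 1 end, 4.33, 5.09 and 4.39 at parabola 3 end and 5.03, 5.28 and 4.74 at parabola 10 end. Its other arrays read 4.12, 3.98 and 4.43 in level flight, 4.51, 4.46 and 4.63 at parabola 1 start, 5.18, 5.10 and 4.93 in KFT A and 4.52, 3.66 and 5.93 in KFT B. Here level flight was low, and the spread within KFT B exceeded the difference between the ends. Differences above 1.1 were also seen for PDF1.4, a defensin gene (1.37), AT1G56660 (1.27), TRM24 (1.15), AT2G38600 of the acid phosphatase class B family (1.13), AT3G18560 (1.12) and psbT (1.11). Between 1 and 1.1 lay AT1G25400, AT5G02160, AT3G29240, AT5G02580, AT1G09460, AT2G32150, AT1G62480 and AT1G01770. Below 1 lay AT5G24490, AT3G15630, AT3G20340, AT1G07040, AT2G05510, AT1G15330, AT5G59080, AT4G28030, AT4G37030, AT3G46280, AT5G06220 and AT4G36050. The members lay on chromosomes 1 (21 genes), 2, 3 and 4 (10 each) and 5 (18), and 1 in the plastid genome. Their median gene length of 2006 bp compared with 2497 bp for the background, and their median level of 6.11 with 5.72.

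Within groups the members varied together in arrays that had not chosen them. Over the 12 arrays of level flight, parabola 1 start, KFT A and KFT B, each gene's deviations from its group means were correlated between members with a mean r of 0.477, against 0.105 among the 34 genes of the reverse pattern and 0.003 in the background. Without the 3 arrays of KFT B the mean r was 0.239 over 9 arrays, against 0.005. With the mean of the other members, over all 12 arrays, 59 of the 70 had r above 0.5, led by AT5G02160 (0.96), AT1G21400 (0.958) and SWEET2 (0.956), and 3 had r below 0: UGT76B1 (-0.443), AT3G46280 (-0.451) and AT4G37030 (-0.511). For these counts and values by gene, neither a background share nor a value without KFT B is given. These are descriptions over arrays that share tubes and 1 normalization, and KFT B replicates 2 and 3 lie at opposite ends.

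The 4 groups that the rule did not use allow tests, and the first asks whether the members already differed at parabola 1 start. Of the 70 members, 15 were called lower than level flight at parabola 1 start and 0 higher by limma, while 2.76% of all 17481 probe sets were called lower (5.9% of the background) and 1.41% higher. Of members with positive values, 2 had an unadjusted p under 0.05. The median difference of the members was -0.17 (52 of 70 below 0), and that of the background 0.04. For 29 members all 3 arrays of parabola 1 start lay below all 3 of level flight, as for 17.6% of the background. With the tube as a random block, at a within-tube correlation of 0.221 estimated from the midpoint tubes, 4 of the 15 calls remained: AT4G37030, ASPGB1, UGT76B1 and AT3G29240. With 1 array left out the calls numbered 7 without level flight replicate 3, and 8 without level flight replicate 2 or any one array of parabola 1 start.

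AT4G37030, for which no role is given here, fell most, by 2.10 (SE 0.24, adjusted p = 5.55e-05) in the limma fit, from 6.17, 6.19 and 6.55 in level flight to 4.20, 3.96 and 4.45 at parabola 1 start. ASPGB1 fell by 1.37 (SE 0.20, adjusted p = 0.000295), from 7.54, 7.83 and 7.83 to 6.28, 6.39 and 6.41. UGT76B1 fell by 1.09 (SE 0.16, adjusted p = 0.000398), from 8.27, 8.36 and 8.43 to 7.19, 7.31 and 7.27. In these 3 genes the groups did not overlap. AT3G29240 fell by 1.14 (SE 0.17, adjusted p = 0.000545), from 6.69, 6.75 and 6.93 to 5.60, 5.70 and 5.67. All 3 GRAM-domain genes were called: AT5G23360 fell by 1.64 (SE 0.29, adjusted p = 0.00178), from 6.60, 6.70 and 6.997 to 4.96, 5.17 and 5.25, AT5G23350 by 1.10, from 6.80, 7.17 and 7.71 to 6.17, 6.18 and 6.03, and AT5G08350 by 0.93. AT1G25400 went from 6.80, 6.91 and 6.83 to 5.58, 5.76 and 6.10, and AT1G56660 from 5.49, 5.91 and 6.37 to 4.95, 4.81 and 4.84, falls of 1.03 and 1.06. The remaining calls were AT2G38600 (-0.99), SWEET2 (-0.93, adjusted p = 0.0497 by limma), BGLU45 (-0.84), AT5G66650 (-0.79), AT2G38240 (-0.63) and AT1G67480 (-0.53).

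Amino acid breakdown had 1 called gene of 8, ASPGB1, while AT1G21400 had -0.51 (SE 0.29, limma adjusted p = 0.415) and MCCB -0.17 (SE 0.18). By limma 0 of the 7 carbon, lipid and nitrogen enzymes were called at parabola 1 start (2 had an unadjusted p under 0.05), and 0 of the 3 DUF506 genes (0 had). By group means, PPDK stood at -0.59 (SE 0.29, limma adjusted p = 0.325). The 2 low-oxygen genes had positive values, 0.31 for AT1G19530 and 0.48 for AT4G27450, and neither passed the test. Of the 14 other listed low-oxygen genes, 3 were called lower at parabola 1 start and 1 higher, with a median of -0.13. Whether these role groups differ from the rest of the members was not tested.

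At the midpoint in KFT A, 11 members were called lower than level flight (3.48% of all probe sets and 7.63% of the background were) and 1 higher (1.65% of all). The median of the members was -0.07, with 43 of 70 below 0, against 0.02 in the background, and 21 had all 3 arrays below level flight (16.6% of the background). AT4G37030 fell by 2.03 (SE 0.24, adjusted p = 4.33e-05) in the limma fit, UGT76B1 by 1.27 (SE 0.16, adjusted p = 6.61e-05) and ASPGB1 by 1.23 (SE 0.20, adjusted p = 0.000536), and these 3 calls alone remained with the tube as a random block. Without level flight replicate 3 there were 7 calls in all, and without KFT A replicate 2 there were 6. UGT76B1 read 7.001, 6.74 and 7.50 and ASPGB1 6.56, 6.10 and 6.85 in KFT A, all below level flight. AT3G46280 fell by 0.91, from 6.43, 6.45 and 6.28 to 5.70, 5.05 and 5.68, although at parabola 1 start it had read 6.55, 6.67 and 6.45. In KFT A, AT1G25400 read 5.59, 5.90 and 5.97, AT3G29240 5.84, 5.83 and 6.33 and AT5G66650 6.39, 6.12 and 6.55, the last against 7.02, 7.11 and 7.29 in level flight, with no overlap in any of them. AT1G25400 fell by 1.02, AT3G29240 by 0.79, AT5G66650 by 0.79, AT2G38240 by 0.70, AT5G08350 by 0.87, AT1G56660 by 0.73 and AT1G10585 by 0.57.

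The low-oxygen gene AT4G27450 was the single member called higher, by 0.97 (SE 0.22, limma adjusted p = 0.0102), from 7.46, 7.80 and 8.27 in level flight to 8.65, 8.96 and 8.84 in KFT A. It was not called in KFT B, where it read 8.42, 7.54 and 8.76, and the difference between the tubes, 0.58 (SE 0.22, limma adjusted p = 0.251), did not pass the test. Of the 14 other listed low-oxygen genes, 3 were called lower than level flight in KFT A and 1 higher, with a median of -0.08. The comparisons of KFT A and KFT B with level flight share the level flight arrays, as does that of parabola 1 start. Called lower at both parabola 1 start and KFT A were 9 members, ASPGB1, AT1G25400, AT1G56660, AT2G38240, AT3G29240, AT4G37030, AT5G08350, AT5G66650 and UGT76B1, where 1.99% of all probe sets and 4.5% of the background were.

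KFT B, fixed at the same moment as KFT A, gave 0 calls among the members against level flight by limma (0.0458% of all probe sets, and 1427 probe sets under an unadjusted p of 0.05), with 16 members under an unadjusted p of 0.05. All 3 arrays lay below level flight for 8 members (7.19% of the background). AT4G37030 had -1.04 (SE 0.24, adjusted p = 0.159), and ASPGB1 had -1.01 (SE 0.20, adjusted p = 0.089). The median of the members was -0.11, and it depended on single arrays: without KFT B replicate 1 it was -0.12, without replicate 2 0.07 and without replicate 3 -0.27. Without replicate 2, 1 member was called. Accordingly 27 of 70 members were above 0 with all arrays and 25, 41 and 12 with 1 left out.

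Set against each other, the midpoint tubes differed in 6 members, all lower in KFT A than in KFT B (1.11% of all probe sets and 2.69% of the background were), and 0 were higher (0.292% of all), with 5 higher at an unadjusted p under 0.05. UGT76B1 was lower by 1.05 (SE 0.16, adjusted p = 0.00216) by limma, at 7.001, 6.74 and 7.50 in KFT A and 8.23, 8.36 and 7.81 in KFT B. AT1G10585 was lower by 0.78 (SE 0.15, adjusted p = 0.0132), at 4.51, 4.81 and 4.80 and 5.16, 5.63 and 5.66. AT1G76470 was lower by 1.08 (SE 0.24, adjusted p = 0.0258), at 4.23, 5.00 and 4.54 and 5.33, 6.01 and 5.67. In these 3 genes the tubes did not overlap. AT4G37030 read 3.98, 4.08 and 4.74 in KFT A and 5.37, 5.75 and 4.65 in KFT B, AT2G38240 7.77, 7.75 and 7.57 and 8.45, 8.17 and 8.57, and AT3G04000 5.44, 5.57 and 5.18 and 5.86, 6.14 and 6.71. AT4G37030 overlapped by 1 array and the other 2 did not. With only the 6 arrays of both tubes in the fit, or with the tube as a random block, 0 of the 6 were called, and without KFT B replicate 2 or KFT A replicate 1 a single call was left. There were 2 calls without KFT B replicate 3 or with all probe sets tested, and 3 without KFT A replicate 2 or with cyclic loess. Both tubes had the same stage but different operators, and tube and operator cannot be told apart.

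**Figure D4:**
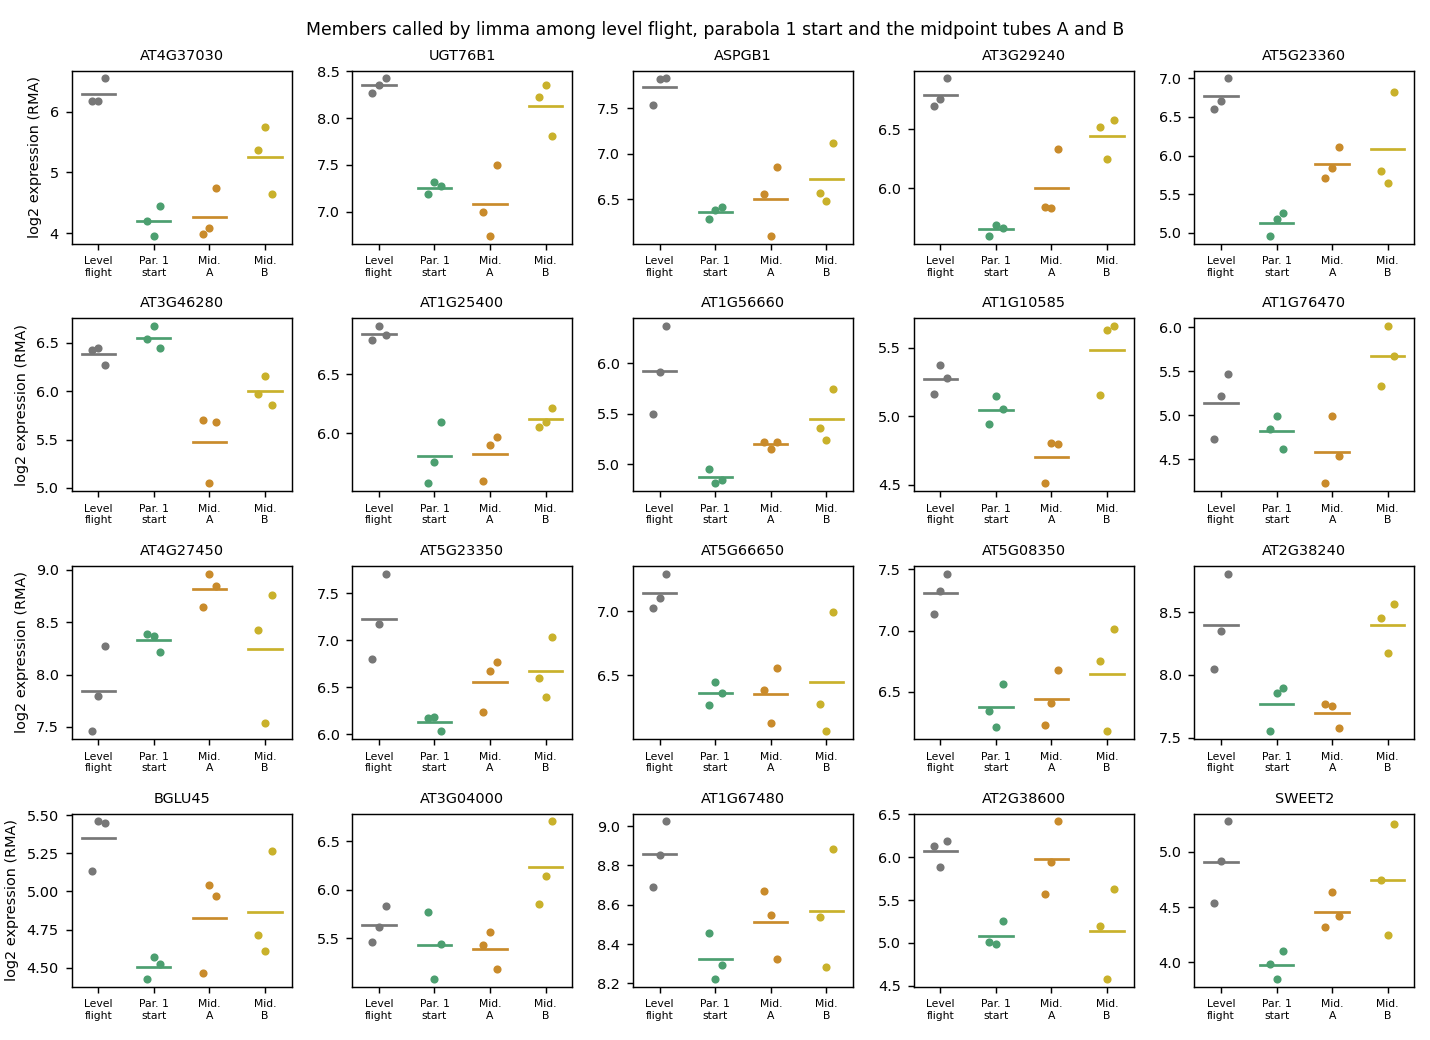
Log2 signal of the 20 members called in at least 1 comparison among level flight, parabola 1 start and the midpoint KFTs A and B, 1 panel a gene, 1 point an array and bars at group means, each vertical axis on its own scale. Level flight is the highest group in most panels, and AT4G27450 is the panel in which KFT A is highest.

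A moderated F test over these 4 groups called 16 members, against 4.83% of all probe sets and 9.85% of the background, and with the tube as a random block 3. Without level flight replicate 2 there were 10. In all, 20 members were called in at least 1 of the 4 pairwise comparisons (7.12% of all probe sets and 13.7% of the background were) and 50 in none. Of the 20, 6 were called at parabola 1 start alone (1.71% of all and 3.13% of the background). Among the 50 were AT1G21400, PPDK, MCCB and AT3G05150, each with a difference above 1.5 between the ends.

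The lists of pathway genes show how far the difference between parabola 10 end and parabola 1 end extended beyond the members. They cover single-gene probe sets only, and a call among them does not require the middle step of the rule. GI, for example, had group means of 4.85, 4.83 and 5.70 at the ends of parabolas 1, 3 and 10. AT4G24110 had 2.40, 2.32 and 3.01, and AT2G15880 had 6.97, 7.74 and 7.66. Other called genes, such as AT1G26270 (7.34, 7.63 and 7.90), stood higher at each step. Between parabola 10 end and parabola 1 end, 1.31% of all probe sets were called higher and 1.02% lower. Of 8 measured genes listed for the breakdown of branched-chain amino acids and lysine, 5 were members. Of the other 3, AT4G20930 of valine breakdown was called higher at parabola 10 end than at parabola 1 end (0.63, limma adjusted p = 0.0191). AT2G26800 (0.16) and ICDH (0.10), whose symbol names isocitrate dehydrogenase rather than an enzyme of this pathway, were not called. These 3 listed genes had a median of 0.155, and the background 0.02. Of 5 sugar-starvation genes, AKINBETA1, ATL8 and AT5G56100 were members, AT3G15450 was called at 0.79, just under the limit, and BZIP53, a SnRK1-linked transcription factor, had 0.39 (adjusted p = 0.207). Of 3 asparagine and proline genes, ASPGB1 and AT5G38710 were members, and the related asparaginase gene ASPGA1 had 0.002. These lists were chosen with earlier results known, and the contrast is the one that chose the members.

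Low-oxygen genes were mixed: of 16, 2 were members, 3 others were called higher (AT4G24110 at 0.60, AT2G15880 at 0.69 and AT1G26270 at 0.56), 0 were called lower, and the 14 that are no members had a median of 0.29. Of 8 mitochondrial stress genes, AT2G21640 was called higher at 1.26 and none was a member (list median 0.21). Of 3 clock genes GI, which times flowering and the clock, was called at 0.85 (median 0.38). In the jasmonate list AT2G38240 was a member, JRG21, a related oxygenase gene, was called at 1.62, and the other 2 of 4 were not called. None of 6 touch, 9 calcium, 2 reactive oxygen, 9 heat, 7 cold, 6 auxin, 14 ribosome biogenesis, 1 nitrate and sulfate and 4 iron and phosphate genes was called in either direction by limma, and 7 of these 54 distinct genes (touch and calcium share some) had an unadjusted p under 0.05. Over all probe sets 2.33% were called and 14.3% had such a p. Of 9 cell wall genes EXPA4, an expansin, was called lower at -0.75, and all 9 values were below 0 with a median of -0.37. No level limit applied to these lists, and they include dim genes. Among the called ones, AT4G24110 had group means of 2.40 at parabola 1 end and 3.01 at parabola 10 end. AT2G21640 had 2.475 and 3.74, and EXPA4 had 3.30 and 2.55, against the limit of 4 set for members. Some lists above without a call between these ends did have genes called lower than level flight. At parabola 1 start these were 4 touch, 3 calcium, 3 heat and 1 each of reactive oxygen, cold, auxin and iron and phosphate (2.76% of all probe sets). In KFT A they were 3 touch, 3 calcium and 1 each of heat, reactive oxygen and auxin (3.48%). In both groups 0 genes of these lists were called higher.

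Of 63 plastid-encoded genes psbT alone was a member and called, but 62 lay above 0, with a median of 0.38. Their summed linear signal was 52321.6 to 71832.6 at parabola 1 end, 66114.8 to 85117 at parabola 10 end and 60616.2 to 83030.5 in level flight. The 5 shoot markers had 0 called by limma (0 at an unadjusted p under 0.05), a median of 0.08 and sums of 52.6 to 67 at parabola 1 end, 55.4 to 70.1 at parabola 10 end and 44.5 to 56.8 in level flight. The 3 endodermis markers also had 0 called by limma (1 at an unadjusted p under 0.05, AT2G48130 at -0.51). Their sum was 517.6 to 683.6 at parabola 1 end, 409.7 to 517.5 at parabola 10 end and 466.3 to 519.1 in level flight. All arrays of parabola 10 end thus lay below all of parabola 1 end, though only just. AT2G48130, the brightest of the 3, weighed most in the sum, with group means of 8.70 and 8.19 at these ends. AT1G61590 had 6.15 and 6.04, and JKD went the other way, with 6.65 and 6.80. The 2 root hair markers had 0 called by limma and 1 at an unadjusted p under 0.05, EXPA18 at -0.57, with sums of 20.8 to 32.6 and 20.8 to 25.1 at these ends. The 3 root cap and root tip markers had 0 called (0 at an unadjusted p under 0.05) and sums of 104.7 to 169.3 and 132.4 to 188. The shoot marker sums stood above level flight at parabola 1 start (66.3 to 69.4) and in KFT A (62.1 to 76.2), and overlapped it in KFT B (55.4 to 77.7). At parabola 1 start and in KFT A, 1 shoot marker each was called higher than level flight. In both, 61 of 63 plastid-encoded genes lay above 0 (56.9% and 53.6% of the background), with 0 called. Also called were 1 endodermis marker, higher at parabola 1 start, and 1 root cap and root tip marker, lower in KFT A. In whole roots, fewer cells of a type and less RNA per cell cannot be told apart, and the part of plastid transcripts or of these markers in the result was not tested.

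**Figure D5:**
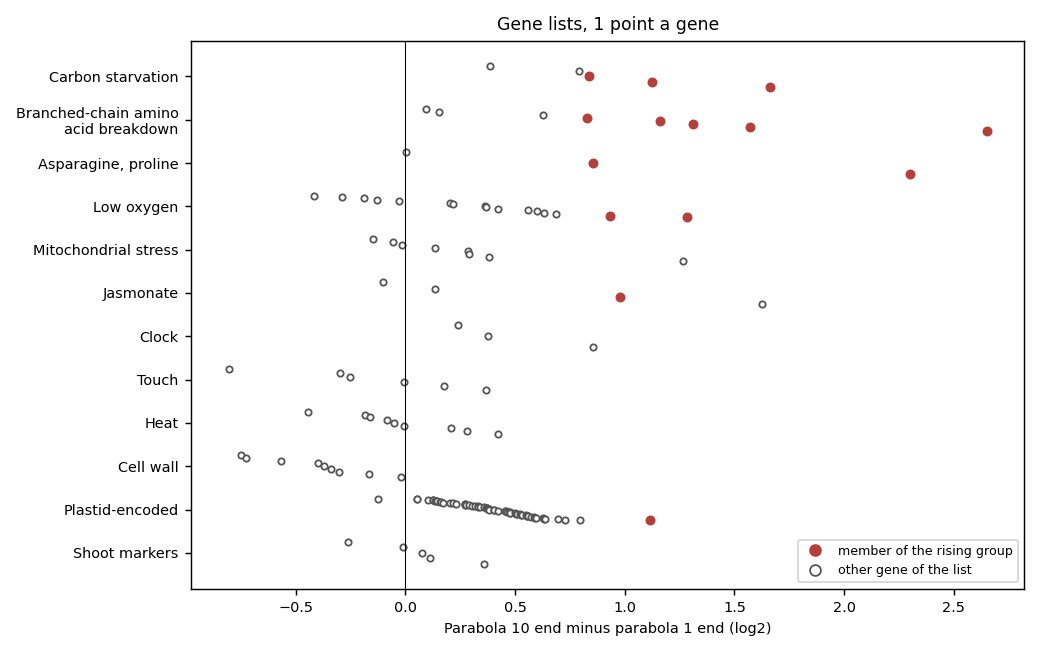
Difference between parabola 10 end and parabola 1 end (log2, horizontal axis) for every measured gene of 12 lists, 1 point a gene, with members filled in red. Members lie at 0.8 or above by the rule; all 9 cell wall genes lie below 0, and 62 of 63 plastid-encoded genes lie above 0.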

How the data were processed

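The deposited table holds log2 expression values that the authors made from Affymetrix AraGene 1.0 ST arrays, with 100 ng of total RNA per array per the labels' protocols. The submitters' processing notes list RMA, oligo, limma, TAIR10 and R 4.0.0. RMA forces a nearly common distribution on the arrays and would hide a global shift. The number of arrays limits the precision. Values ran from 0.69 to 13.3 in all 38408 probe sets. The platform annotation names 1 gene for 16722, several for 759 and none for 20927; 16574 of the 16722 matched RefSeq (assembly TAIR10.1), used for symbols and neighbours only. No coordinates or sequences are given.

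From these values, two-sided tests were made with lmFit and eBayes of limma 3.58.1 (R 4.3.3, data.table version 1.17.8). A single fit took the 17481 named probe sets, dim ones included, in all 21 arrays, and estimated 7 group means, which leaves 14 residual degrees of freedom. Benjamini-Hochberg adjustment covered all 17481 within each comparison, with a threshold of 0.05. Tests are reported for parabola 1 start, KFT A and KFT B against level flight, for KFT A against KFT B and for an F test over these 4 groups. Linear sums are sums of 2 to the power of the value. The fit was tested on simulated data with known changes.

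The members, the gene lists, the roles and the tests were chosen with earlier results of these data known. Of 460 list loci, 118 are on single-gene probe sets, beside the 63 plastid-encoded genes. Any member may be named. Values per array are given for the 12 members with the largest difference, for up to 8 members called in each comparison (smallest p first) and for members of the lists, and list genes outside the members are named up to 3 a list. Alternatives tried were robust estimation with a variance trend, brighter probe sets only, a fit of the compared arrays alone, a block on replicate number, cyclic loess, all probe sets, the tube as a random block, other limits of the rule, and leaving out each array.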

Additional observations from a re-analysis of the deposited data

Results flagged for a closer look

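In 6 members the midpoint tubes, fixed at one moment by different crew members, differed by limma's test of KFT A against KFT B, that is, in their difference from level flight. UGT76B1 was at -1.05 (adjusted p = 0.00216), with 3 of 3 arrays of KFT A below 3 of 3 of KFT B. AT1G10585 was at -0.78 (adjusted p = 0.0132, limma) and AT1G76470 at -1.08 (adjusted p = 0.0258, limma), likewise without overlap. AT4G37030 was at -0.99 (adjusted p = 0.0442), AT2G38240 at -0.70 (adjusted p = 0.0465) and AT3G04000 at -0.84 (adjusted p = 0.0482) by limma, the first with 1 array of overlap. With the tube as a random block, or with only the 6 arrays compared in the fit, 0 of the 6 were called, and with 1 array left out between 1 and 4 were. Tube and operator cannot be told apart here, and the cause was not tested.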

How the results depend on the processing

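The number of genes meeting the rule stayed within 1.5 times of 70 under every alternative tried: 63 with cyclic loess, 73 with medians of 3 arrays (59 shared), 55 with a level of at least 5, 55 with steps of at least 0.3, and 54 to 86 with 1 array left out. With the tube as a random block the calls among members were 4 in place of 15 at parabola 1 start, 3 in place of 12 in KFT A, 0 in place of 6 between the tubes and 3 in place of 16 in the F test. This block rests on a correlation of 0.221 from a single pair of tubes (mean square ratio 1.85), since duplicateCorrelation gave -0.073, which cannot represent a variance between tubes. Leaving out 1 array gave 7 to 13 calls at parabola 1 start (7 without level flight replicate 3, and 8 without level flight replicate 2 or any array of parabola 1 start), 6 to 11 in KFT A (7 without level flight replicate 3, 6 without KFT A replicate 2), 0 to 1 in KFT B (1 without its replicate 2), 1 to 4 between the tubes (1 without KFT A replicate 1 or KFT B replicate 2, 2 without KFT B replicate 3, 3 without KFT A replicate 2) and 10 to 18 in the F test (10 without level flight replicate 2). Between the tubes the calls were also 0 with only the arrays compared, 3 with cyclic loess and 2 with all probe sets. With the replicate number as a block the calls were 11 at parabola 1 start, 12 in KFT A, 0 in KFT B, 3 between the tubes and 13 in the F test. The numbers do not pair samples: arrays of the same number in different groups correlated with r from -0.106 to 0.153 over 63 pairs, and 8 of 21 arrays correlated best with an array of their own number. Leaving out an array leaves fewer arrays in the fit by construction, and the cause of the other losses was not tested. For single called members, 136 of 195 values at parabola 1 start, 121 of 156 in KFT A and 35 of 78 between the tubes kept their call, the others lost it, and 0 changed sign. All 490 values of the difference between parabola 10 end and parabola 1 end moved by less than the spread between replicates. Where 1 of 3 arrays was left out this follows from the arithmetic, so it does not show how robust the difference is.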

Other observations

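Beyond the single-gene probe sets, 139 probe sets that the annotation leaves unnamed or pairs with several genes met the same limits, and 56 met the reverse pattern. They are not named here.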
